A study of Arabidopsis thaliana with 8 samples.

Results

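Plates TA31 to TA36 of a chromosome 4 tiling array lie, in the order of their probe IDs, between 2 long blocks of plates with low H3K4me2 ratios, TA21 to TA30 before them and TA37 to TA51 after them. Their members were all probes whose ID names 1 of these 6 plates and that had a value in every column. That gave 556 of the 21295 probes with values, from 576 wells listed. The plates were selected on the measured ratios themselves, since the blocks on either side were recognised by their low plate medians in the 4 replicates. The levels of the members and their distance from the low blocks are therefore a description, with no test of their own. H3K4me2, dimethylation of lysine 4 of histone H3, was measured by chromatin immunoprecipitation read on the array (ChIP-chip). Whole seedlings of Arabidopsis thaliana, 10 days old and without treatment, were grown in liquid medium at 22 degrees C with a photoperiod of 16 hours. The source names give ColxC24, a cross of the accessions Col-0 and C24, while the strain field gives C24 alone, and the source names were followed. They were also followed for the channels, since the sample type tag puts input on Cy5 throughout. Immunoprecipitated DNA (IP) was set against input DNA of the same replicate in 4 replicates, I to IV, each on 2 arrays with the dyes swapped, and no other genotype, antibody or treatment entered the values below.

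H3K4me2 is laid down on nucleosomes in and around genes, and in plants it is a mark of open, gene-bearing chromatin that is scarce in heterochromatin. The short arm of chromosome 4 of Col-0 is known for a heterochromatic knob, and gene-bearing chromatin lies between that knob and the heterochromatin around the centromere. The probe IDs carry a plate, a row and a well (TA36G05 is plate TA36, row G, well 05) but no position, and 0 of the 556 members were found in RefSeq's gene table for the species. No member was therefore given a gene or a place on the chromosome, and whether ID order follows the chromosome was not tested.

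The values are log ratios of the 2 channels, taken as log2, less the median of each replicate over all probes with a value. In what follows they are called the ratio. The direction of the ratio is not given in the sources used here, so "above" and "below" follow the sign as deposited and change places if it is turned. Both columns of a dye swap held the same numbers, so each replicate counts once (n = 4). The labels do not say whether separate plants or chromatin stand behind each replicate. The p-values thus cover the spread between these 4 samples alone, and that spread may be technical. Replicates I and III were alike, as were II and IV. Over the members the SD of the difference between 2 replicates was 0.20 for I and III and also 0.20 for II and IV, against 0.45 to 0.48 for the other 4 pairs. The limma test takes the 4 as independent, and its p-values are too small if they are not.

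The interval as a whole stood close to the median probe. Its median ratio was -0.15, -0.07, -0.12 and -0.08 in replicates I to IV, or -0.11 ± 0.04 on average (SD, n = 4). The 4 replicates had the same sign and a narrow range. Of the members, 46.4% ± 1.5 had a ratio above 0 (SD, n = 4). A call was made where limma's treat test placed a probe more than 0.5 from the median at an adjusted p under 0.05 (two-sided, Benjamini-Hochberg over all 21295 probes). By this rule 132 members (23.7%) lay above, beside 28.1% of all probes, and 160 (28.8%) lay below, beside 30.6% of all probes. The remaining 264 had no call. When the like replicates were entered as random blocks, 110 members lay above, beside 24.6% of all probes, and 151 lay below, beside 27.7%. The split depends on where 0 is placed: without centring 51 members lay above and 218 below, beside 10.7% and 39.3% of all probes. With the mode of each profile as 0 the counts were 53 and 262, beside 10.7% and 44.7%. In the plain limma test against 0, 200 members were above and 247 below, beside 42.1% and 42.3% of all probes. The rule that chose the plates rests on the same ratios, so nothing is read from these shares.

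The 6 plates were not alike. TA32 was the highest, with medians of 0.21, 0.54, 0.20 and 0.67 in replicates I to IV. Replicates II and IV were the higher ones there, and the mean was 0.40 ± 0.24 (SD, n = 4). TA33 followed at 0.09 ± 0.08 and TA31 at 0.04 ± 0.01, and TA36 had 0.0054 ± 0.038. Replicates of both signs occurred on TA33 and on TA36. TA34 was the lowest, with -0.99, -0.90, -0.82 and -0.83 in replicates I to IV, and TA35 had -0.48, -0.54, -0.30 and -0.52. The replicate values of TA34 and TA35 did not overlap with each other or with those of the other 4 plates. On TA34, 54 of 94 probes (57.4%) were called below and 8 (8.5%) above. On TA32 the counts were 13 (14.1%) below and 31 (33.7%) above of 92. Over all probes 30.6% were called below and 28.1% above. These signs hold for the median probe as 0. Without centring all plates shift by -0.50, and with the mode as 0 by -0.60, and 0 of the 6 plates then had a mean of the 4 medians above 0. The wells without a value numbered 5 on TA31, 4 on TA32, 9 on TA33 and 2 on TA34, and TA35 and TA36 were complete.

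**Figure D1:**
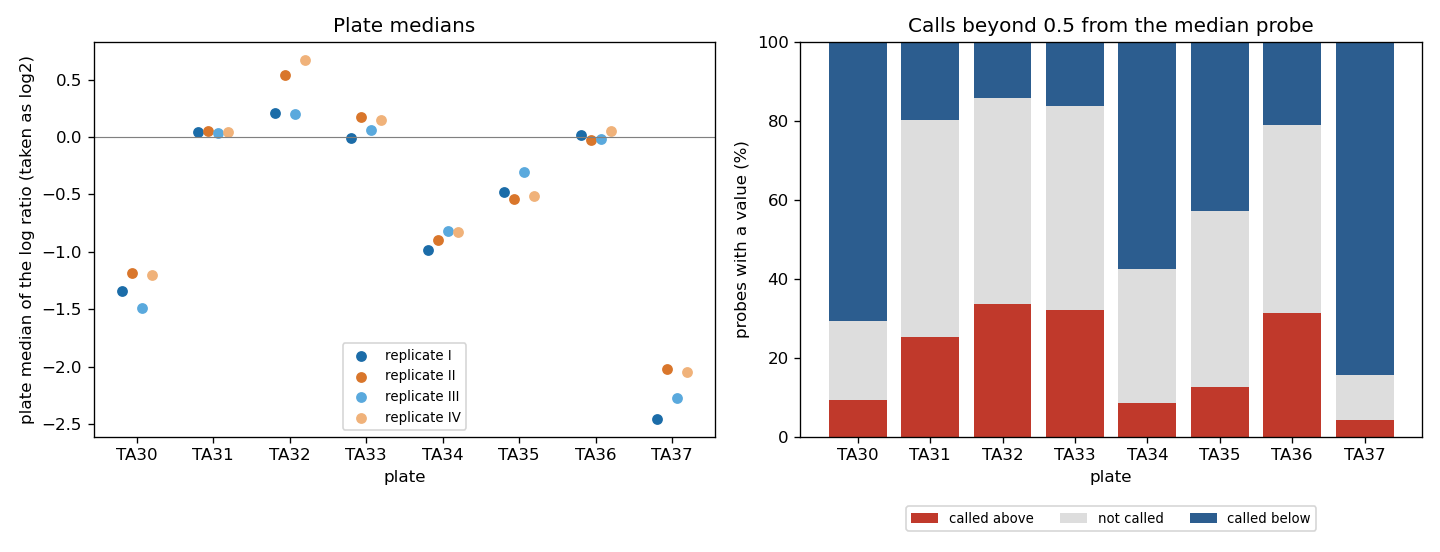
Left, the median log ratio (taken as log2, centred on each replicate's median) of plates TA30 to TA37, with a point for each of 4 replicates. Right, the share of each plate's probes called above, not called or called below. TA34 and TA35 lie under the other members, and the neighbouring plates TA30 and TA37 lie under all 6.

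Against the low blocks the interval was higher by about 2 log2 units. The interval's median exceeded that of TA21 to TA30 (823 probes, median -1.99 ± 0.11) by 1.92, 1.84, 1.98 and 1.81 in replicates I to IV, a mean of 1.88 ± 0.08 (SD, n = 4). It exceeded that of TA37 to TA51 (1342 probes, median -2.10 ± 0.16) by 2.10, 1.91, 2.09 and 1.86, a mean of 1.99 ± 0.12. All 4 replicates had the same direction, which the choice of the plates fixes. Ratios above 0 were found at 46.4% of the members, against 13.5% ± 0.6 in TA21 to TA30 and 4.21% ± 0.25 in TA37 to TA51. The members were more spread out than TA37 to TA51, but less than TA21 to TA30 and all other probes. The range from the 25th to the 75th percentile of the members' mean ratios was 1.67, from -0.95 to 0.73. It was 1.84 in TA21 to TA30, 1.23 in TA37 to TA51 and 1.89 over all other probes. Low probes were not missing from the interval: 130 members (23.4%) were under -1 and 61 (10.97%) under -2, beside 25.3% and 12.1% of all other probes. Some of them lay at the low ends of the interval. Between the edges described below, TA31B05 to TA36G05, 108 of 525 members (20.6%) were under -1 and 43 (8.19%) under -2. Members over 1 numbered 100, or 18.0%, beside 20.9% of all other probes.

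**Figure D2:**
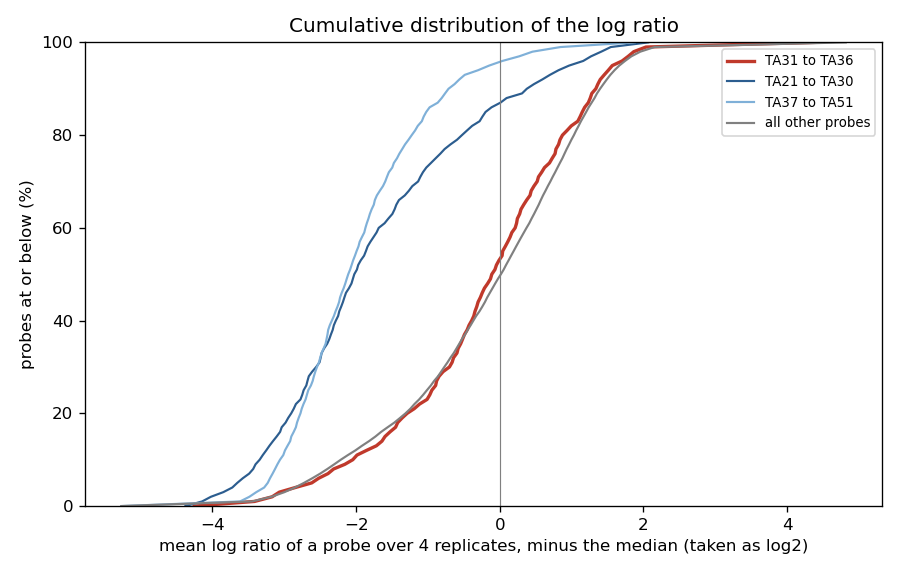
Cumulative share of probes (%) against the mean log ratio over 4 replicates (taken as log2), for TA31 to TA36, the blocks TA21 to TA30 and TA37 to TA51, and all other probes. The curve of TA31 to TA36 runs close to that of all other probes and to the right of both blocks, whose medians are near -2.

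In ID order the interval was a sequence of high and low stretches rather than an even level. The members were divided into the 7 stretches, each of at least 12 wells with a value, that leave the smallest squared deviations of the mean profile. The number 7 was chosen after the profile had been seen, and the division accounts for 42.9% of the squared deviations. The first stretch, TA31A01 to TA31B03, had a mean of -2.02 ± 0.10 (SD, n = 4) and is at the minimum length, with 12 probes. The second and longest, TA31B05 to TA34B07, held 277 probes at 0.25 ± 0.07, with 88 (31.8%) called above and 38 (13.7%) below. Over all probes 28.1% were called above and 30.6% below. The third, TA34B08 to TA35A08, held 83 probes at -1.24 ± 0.13, with 2 (2.4%) above and 59 (71.1%) below.

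The fourth stretch, TA35A09 to TA35F01, was intermediate, with 53 probes at -0.15 ± 0.09. Of these 10 (18.9%) were called above and 15 (28.3%) below, beside 28.1% and 30.6% of all probes. The fifth, TA35F02 to TA35G07, was the lowest, with 18 probes at -3.05, -2.80, -2.96 and -2.83 in replicates I to IV, and all 18 were called below. The sixth, TA35G08 to TA36G05, held 94 probes at 0.32 ± 0.09, with 32 (34.0%) above and 7 (7.4%) below. The seventh, TA36G06 to TA36H12, held the last 19 probes of the interval at -1.90 ± 0.04, with 0 above and 15 (78.9%) below.

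Divided one replicate at a time, the profiles gave nearly the same places. The mean profile is the average of these same replicates, and those of a like pair are close to each other. The agreement is therefore a description and no separate check of the breaks. The breaks before TA31B05, TA35G08 and TA36G06 fell on the same well in 4 of 4 replicates. The breaks near TA34B08 and TA35F02 fell within 1 well of the mean profile in 4 of 4. The break before TA35A09 was found there in I and III, but 23 wells later, before TA35C08, in II and IV. Within the long second stretch the rows of 12 wells still ran from -0.85 ± 0.27 on TA33E to 1.25 ± 0.14 on TA33H.

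**Figure D3:**
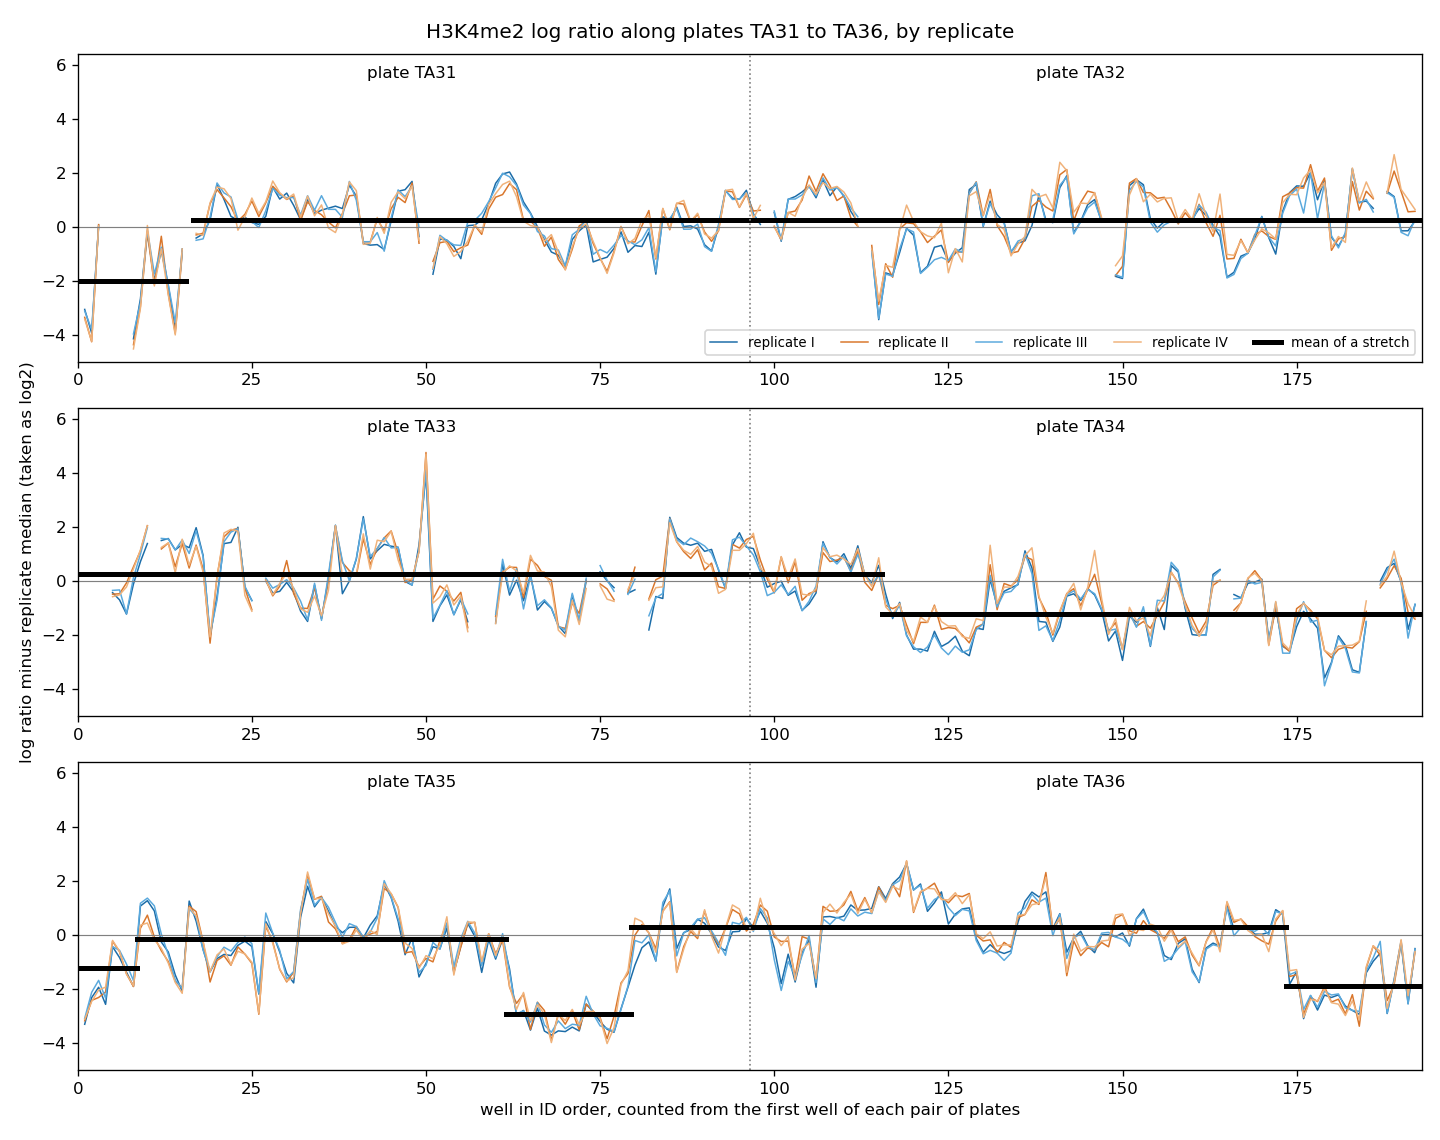
Log ratio (taken as log2, centred on each replicate's median) of the members in ID order, 2 plates to a panel, with a line for each of 4 replicates, broken at wells without a value. Black bars are the means of the 7 stretches: the 18 wells from TA35F02 lie near -2.9, and the ends of the interval, before TA31B05 and from TA36G06, lie near -2.

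By rows of 12 wells, 19 of the 48 rows had a median above 0 in all 4 replicates, 21 had a median below 0 in all 4, and 8 were of mixed sign. The median was over 1 in every replicate on 2 rows, TA33H and TA36B. It was under -1 in every replicate on 8 rows, which were TA31A, TA34C, TA34E, TA34G, TA35F, TA35G, TA36G and TA36H. TA35F was the lowest row at -3.46, -2.81, -3.20 and -2.84 in replicates I to IV.

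Called probes formed runs of consecutive wells, where a well without a call or a value ends a run. There were 45 runs above, with a mean of 2.93 wells, and 57 runs below, with a mean of 2.81 wells, beside means of 2.47 and 3.40 over all probes. In the low blocks the runs above were shorter, at 1.90 wells in TA21 to TA30 and 1.36 in TA37 to TA51. The runs below were longer there, at 5.43 and 12.1 wells. These are means, and the members' mean above includes a run of 20 wells. The members' median length was 2 wells above and 1 below, beside 2 in each direction over all probes. Single wells made up 29 of the 57 runs below. Runs of 5 or more wells numbered 6 above and 6 below among the members. Of 101 pairs of consecutive runs, 40 changed direction, and among the 33 runs of 3 or more wells (19 above, 14 below) 10 of 32 pairs did. These counts depend on the definition of a run. A well without a call or a value cuts 1 stretch into several runs, which adds pairs of the same direction. No share over all probes is given for them, so they do not show how far high and low runs take turns.

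The longest run above was TA36B01 to TA36C08, 20 wells at 1.28, 1.45, 1.24 and 1.42 in replicates I to IV, with every probe between 0.75 and 2.70. In all 4 replicates it stood over 1, and only 1 of the 2419 runs above on the array was longer. This level and this length hold for the median probe as 0, and the length of the run under other centring is not given here. The next in length were much shorter: TA32A08 to TA32B02 with 7 wells at 1.37 ± 0.02 (SD, n = 4), TA33H01 to TA33H07 with 7 at 1.32 ± 0.20, and TA32G06 to TA32G11 with 6 at 1.45 ± 0.19. TA31E11 to TA31F03 had 5 wells at 1.40 ± 0.20, and TA35C08 to TA35C12 had 5 at 1.27 ± 0.08. Apart from the longest, the named runs above were thus alike in level, within 0.2 of each other, and in 5 to 7 wells of length.

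The longest run below was TA35F02 to TA35G07, the fifth stretch itself, with 18 wells between -3.80 and -1.62 and a mean of -2.91 ± 0.12. This mean lies under the medians of both low blocks, although the run is inside the interval. The measures are unlike, since a run holds only wells called below and the block medians cover all probes. The 2 runs of 15 wells were both on TA34. TA34G03 to TA34H05 had -2.22, -1.93, -2.23 and -1.87 in replicates I to IV, and TA34B08 to TA34C10 had -1.99, -1.58, -2.05 and -1.52. In both runs I and III were the lower replicates. TA36G06 to TA36H05 followed with 12 wells at -2.27 ± 0.04, TA34E03 to TA34E11 with 9 at -1.59 ± 0.10 and TA34H11 to TA35A04 with 6 at -2.05 ± 0.08. No well called above stood between TA34B08 and TA35A08 except TA34D04 and TA34H09, which were noticed after the values were seen.

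**Figure D4:**
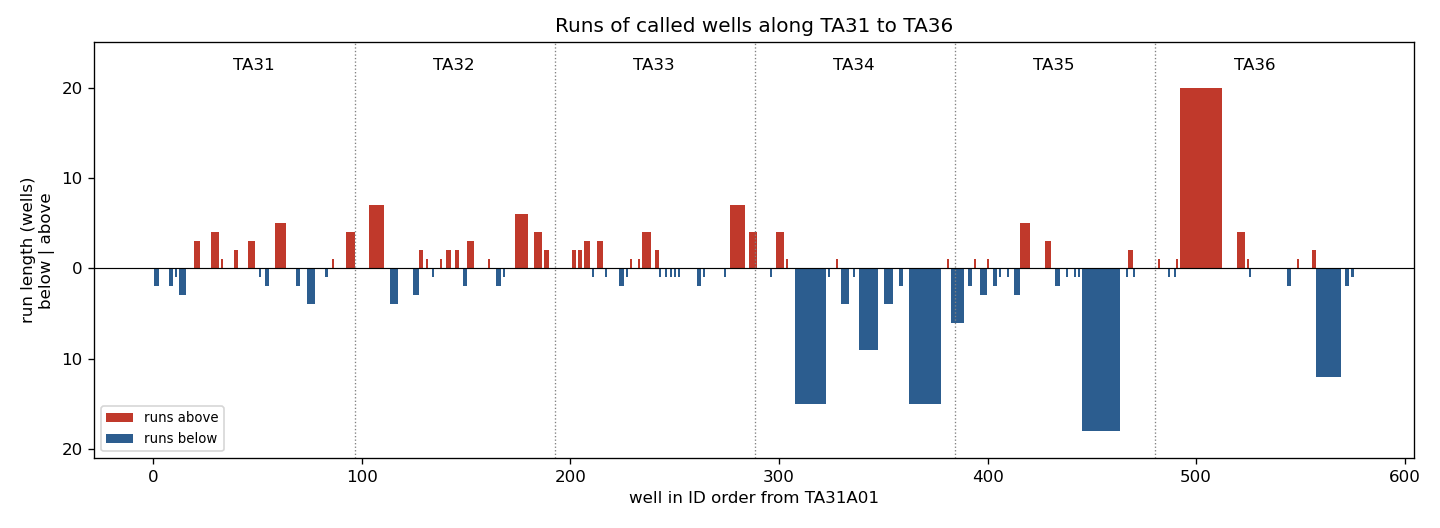
Length in wells of each run of called wells against its place in ID order from TA31A01, with runs above drawn upward and runs below drawn downward. Runs of 9 or more wells below lie on TA34, TA35 and the end of TA36, and the single run of 20 wells above lies on TA36.

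The highest member was TA33E02, at 3.96, 4.76, 4.11 and 4.69 in replicates I to IV, or 4.38 ± 0.40 (SD, n = 4). It had the third highest mean of all 21295 probes. TA33E01 before it was also called above, at a mean of 1.17, so that the pair forms a run of 2 wells. TA33E03 after it was called below, at -1.10, and TA33E03 minus TA33E02 was -5.48 ± 0.04, the largest change between adjacent wells of the interval. TA36B11, inside the run of 20, was next at 2.70 ± 0.05, with neighbours at 1.82 and 1.27. TA33H01 was at 2.28 ± 0.09 and opens the run of 7 wells on that row, next to TA33G12 at -0.29.

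The 3 lowest members all lay at the start of TA31. TA31A08 had -4.15, -4.37, -3.97 and -4.53 in replicates I to IV, TA31A02 had -3.94, -4.26, -3.81 and -4.24, and TA31B02 had -3.83, -3.95, -3.55 and -4.01. These levels were among the lowest on the array, the first ranking 15th from the bottom. The wells between them were uneven. TA31A09, TA31A11 and TA31B01 were also called below, with means of -2.87, -2.02 and -2.33. TA31A03, TA31A06, TA31A10 and TA31A12 were not called, with means of 0.04, 0.10, -0.12 and -0.70. The step from TA31A02 to TA31A03 was thus about 4 log2 units. Changes over 2 between adjacent wells occurred at 26 of 536 pairs of members (4.85%), beside 4.34% of the pairs over the whole array.

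The change from the first low block to the interval lay inside plate TA31 and not at its first well. TA31 exceeded TA30 in its plate median by 1.38, 1.23, 1.52 and 1.25 in replicates I to IV, a mean of 1.35 ± 0.14 (SD, n = 4). With only the first 24 wells of TA31 and the last 24 of TA30 the difference was larger, at 2.18. Over both plates together, the best division into 2 levels fell between TA31B03 and TA31B05 in all 4 replicates, with TA31B04 lacking a value. The mean of the wells from TA31B05 on was 0.21, and that of the wells before it was -1.42. The 2 wells next to the plate boundary on each side were all low. TA31A01 and TA31A02 had means of -3.24 and -4.06, and TA30H11 and TA30H12 had -3.66 and -3.86. The last wells of TA30 also held an isolated high probe, TA30H10, at 1.56 ± 0.13.

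The change to the second low block also lay away from the plate boundary, but before it rather than after it. TA36 exceeded TA37 in its plate median by 2.47, 2.0, 2.25 and 2.10 in replicates I to IV, a mean of 2.204 ± 0.20. With only the last 24 wells of TA36 and the first 24 of TA37 the difference was 0.13. The best division of both plates into 2 levels fell between TA36G05 and TA36G06 in 4 of 4 replicates, 19 wells before TA37 begins. The 77 wells of TA36 before it had a mean of 0.30, 0.44, 0.25 and 0.43 in replicates I to IV, against -2.03, -1.92, -1.94 and -1.92 in the 115 wells after it. The 2 wells that meet there had means of 0.84 at TA36G05 and -1.53 at TA36G06, and TA36G06 minus TA36G05 was -2.38 ± 0.17.

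Past this edge the ratios stayed mostly low but uneven. Of the last 6 wells of TA36, TA36H08, TA36H09 and TA36H11 had means of -2.73, -1.73 and -2.44 and were called below. TA36H07, TA36H10 and TA36H12 had -0.56, -0.25 and -0.56 and were not called. All of the first 6 wells of TA37 were called below, between -0.86 ± 0.21 at TA37A02 and -3.98 ± 0.08 at TA37A03. For TA37A02 the call was lost when the like replicates were entered as random blocks (adjusted p = 0.062). Row B of TA37 came back near 0, at a median of -0.18 ± 0.09 (SD, n = 4). Within it, TA37B03 had 0.90, 0.78, 0.90 and 0.88 in replicates I to IV. The other rows of TA37 had medians from -3.05 to -1.32. Where only the 525 members between both edges, TA31B05 to TA36G05, were taken, the median was -0.04 ± 0.05. Of these 132 (25.1%) were called above and 137 (26.1%) below, beside 28.1% and 30.6% of all probes. Every call above thus lay between the edges, and 23 of the 160 calls below lay outside them. Both edges were placed after the values were seen.

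**Figure D5:**
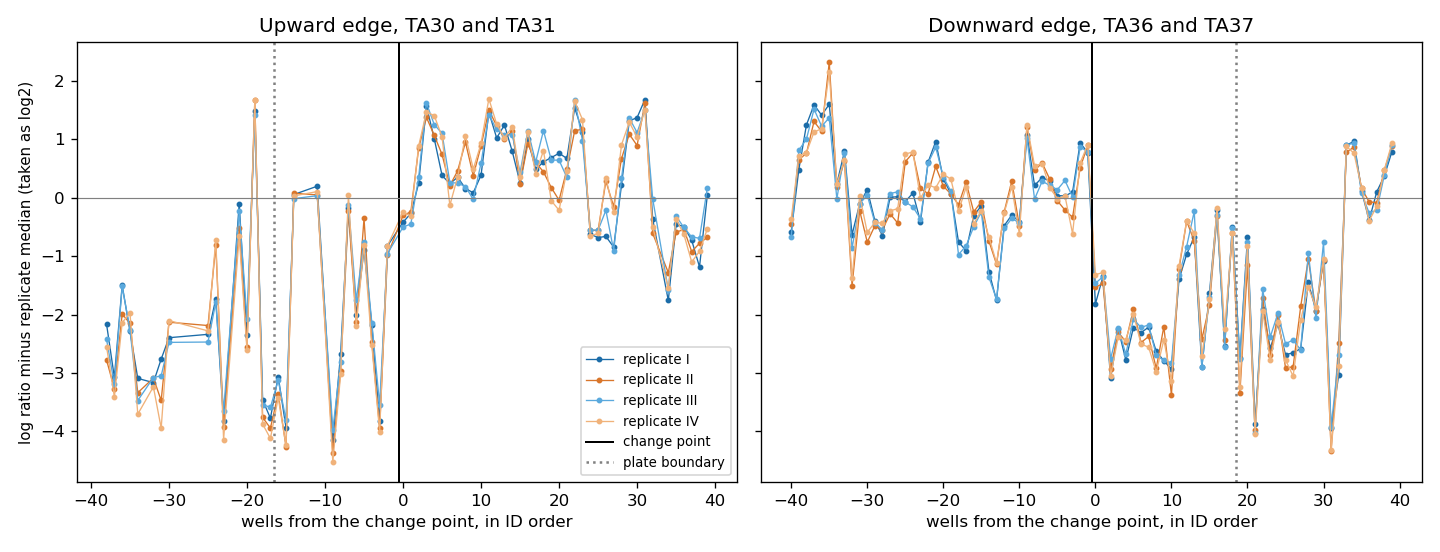
Log ratio (taken as log2, centred on each replicate's median) of single wells in each of 4 replicates, against the number of wells from the change point (solid line), at TA30 and TA31 (left) and at TA36 and TA37 (right). The dotted line is the plate boundary, which lies in the low part on both sides: the ratio steps up 16 wells after it on the left and steps down 19 wells before it on the right.

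Members next to each other had similar ratios. Across probes, the Pearson correlation of the mean ratio was 0.73 between wells 1 apart (536 pairs), 0.58 at 2, 0.37 at 5, 0.21 at 10 and 0.04 at 20. The low blocks likewise came close to 0 at 20 wells, with 0.05 in TA21 to TA30 and 0.09 in TA37 to TA51, against 0.64 and 0.51 at 1 well. Over all probes the values were 0.75 at 1 well and 0.40 at 20. These points share probes and arrays and are not independent, so no p is given. In single replicates the value at 1 well was 0.70 to 0.73. The sign of the ratio changed between adjacent members at 101, 123, 114 and 131 of 536 pairs in replicates I to IV, more often in II and IV than in I and III.

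The replicates gave the same sign at 458 of the 556 members (82.4%), beside 86.4% of all other probes, and the SD of a member over the replicates had a median of 0.20. The members that varied most did so along the like pairs. TA36A05 had -1.80 and -2.05 in I and III but -0.24 and -0.39 in II and IV. TA32C01 had -1.70 and -1.73 in I and III but -0.18 in both II and IV. TA32H10 had -0.15 and -0.21 in I and III but 1.31 and 1.38 in II and IV. None of the 3 was called in the treat test. The pairs follow no label, so no test was made along them.

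The titles of III and IV share 1 set of numbers and those of I and II another, a possible batch, and this was the only comparison that the choice of the plates did not use. The members differed little along it, with a median difference of 0.02 (III and IV minus I and II) and 90% of the members between -0.17 and 0.25. In limma's test 0 of 556 members passed an adjusted p of 0.05, beside 0% of all probes, and 1 passed an unadjusted p of 0.05, beside 0.131% of all probes. The difference between the like pairs enters the residual of this test, so its counts are low by construction. With each like pair of replicates as a fixed block, a fit chosen after the data were seen, 30 members (5.40%) passed the unadjusted p, beside 7.65% of all probes. At the adjusted p 2 members passed, beside 0.0423% of all probes. This fit leaves 1 residual degree of freedom per probe, so its SE and p lean on the variance pooled over all probes. Its blocks follow no label and were taken from the likeness of these same values, which lowers its SE and p by construction. Neither of the 2 members passed the adjusted p without blocks. TA32D05 had 1.15 and 1.39 in III and IV, against 0.05 and 0.76 in I and II, and differed by 0.87 (SE 0.13, limma with blocks, adjusted p = 0.025). TA35G08, the first well after the lowest run, had -0.20 and 0.63 in III and IV, against -1.11 and -0.0027 in I and II, and differed by 0.77 (SE 0.12, limma with blocks, adjusted p = 0.036).

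Place on the plate also moved with the ratio. Medians by plate row, over the 6 plates, ran from -0.59 ± 0.10 on row G to 0.31 ± 0.02 on row B. Rows F and G hold the lowest run, and rows B and C hold the run of 20 wells above. Medians by well column ran from -0.38 ± 0.17 in column 06 to 0.14 ± 0.15 in column 09. Over all other probes the row medians lay between -0.04 and 0.10 and the column medians between -0.08 and 0.08. The 2 ranges are not on a par. The members' medians rest on 65 to 72 probes per row and 44 to 48 per column, while the other probes number 20739. The part of plate position in the members' ratios was not tested.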

How the data were processed

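The table deposited by the authors holds log ratios of 2 channels for 21800 probe IDs in 8 columns, 1 per array, taken here as log2. No label or header states the base of the logarithm, the direction, the background correction or the normalization. Both columns of a replicate were identical (0 probes differed) and were counted as 1. Each replicate was centred on its median over 21295 probes, without loess or quantile normalization. Calls were made with R 4.3.3 and its limma package 3.58.1 (lmFit, and treat at a distance of 0.5 or eBayes), with Benjamini-Hochberg adjustment over all probes. The code for the fits and the division into stretches was run on simulated data with independent noise. The simulated stretches had levels near those found. Neighbouring wells and like replicates are not independent here, so those runs check the code alone. Other values were computed with pandas 2.3.3 and numpy 2.4.6 under Python 3.11.15. The named runs were the 6 longest of each direction. The named probes were the 3 highest and 3 lowest called with 1 sign in all replicates, the 3 most variable, and the wells beside each plate boundary. Members and rules were chosen with earlier results of these data known. Depth does not apply, and the 4 replicates limit the precision. Scanner signals were not used here. The alternatives were other centring, quantile normalization, thresholds, blocks, rules for runs and leaving out each replicate.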

Additional observations from a re-analysis of the deposited data

How the results depend on the processing

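The calls depend on where 0 is placed. Without centring, 51 members were above, and the interval median was -0.61. Centred on the mode of each replicate, 53 were above and 262 below, and the median was -0.70. At a treat distance of 1, 66 were above. In the plain limma test 200 were above and 247 below, beside 42.1% and 42.3% of all probes. Only between the change points, an alternative chosen after the data were seen, the median was -0.038. Taken as means over wells, the interval was at -0.22, the steps and distances were 1.87 for TA36 minus TA37, 1.52 for the interval minus TA21 to TA30 and 1.75 for the interval minus TA37 to TA51. With 24 wells beside each boundary the step was 0.13 for TA36 minus TA37 and 2.18 for TA31 minus TA30. With the like pairs as fixed blocks, also added later, 2 members passed between the sets of titles, against 0 without. Those blocks were taken from the likeness of these same values, which lowers the p-values. Numbers of runs stayed within 1.5 times under each alternative run. Leaving out each replicate gave 123 to 128 members above and 155 to 161 below, 42 to 47 runs above and 55 to 58 below, and 0 members between the title sets. For a distance of 1 and for leaving out a replicate, no share of all probes is given here. Nothing about the members is read from those counts. Of 312 checks of the 26 named probes, 290 kept sign and side of the threshold and 3 lost the call, all for TA37A02. In 16, a probe without a call gained one. TA32H10 (-0.013 centred on the mode) and TA31A03 (-0.47 without centring, -0.56 centred on the mode) changed sign, neither being called. Apart from the change of 0 itself, the cause was not tested. No paired analysis between groups was possible because the samples form 1 group. The like pairs entered only as blocks: as random blocks they gave 110 members above and 151 below, against 132 and 160. Limits from signal over background were not set, as the scanner signals were not used here.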
